A study of Rattus norvegicus with 196 samples.

Results

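The habenula (HB) of rats given fluoxetine was compared with that of rats given water, and the 8 HB samples described here were chosen by their brain region label from 196 samples that cover 25 regions. By treatment they form 2 groups of 4: the FT group received fluoxetine, a selective serotonin reuptake inhibitor, at 18 mg/kg per day in drinking water for 6 weeks, and the Sham group received water for the same time. All animals were male Long-Evans rats, about 2 months old when assigned to a group and killed after the 6 weeks. Neither group had a genetic or behavioural manipulation. Each sample holds tissue punches pooled from several animals, and replicates 1, 3, 4 and 5 of the FT and Sham groups were processed side by side, so that each number joins 1 FT and 1 Sham sample into a pair.

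The habenula is a small paired nucleus of the epithalamus that lies against the third ventricle, beneath the choroid plexus and above the mediodorsal thalamus. Its medial part holds cholinergic and peptidergic neurons that project to the interpeduncular nucleus, and its lateral part holds glutamatergic neurons that act on the dopaminergic ventral tegmental area and, in part through inhibitory relays, on the serotonergic raphe nuclei. Lateral habenula activity rises with disappointment and punishment, and for this reason the nucleus is studied in depression. The comparison asks which transcripts differ in this nucleus after sustained serotonin reuptake inhibition.

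Total RNA was sequenced and reads were counted per Ensembl transcript. The HB samples held between 5078848 and 15618793 counted reads, and the lowest totals were the 2 samples of replicate 3, at 5078848 in FT and 5286026 in Sham. In these 2 samples the 50 most abundant transcripts took 67.9% and 67.6% of the reads, against 26.7% to 41.8% in the other HB samples. Levels below are in CPM, each count divided by the size of its library after scaling by the trimmed mean of M values (TMM). The scaling factors were 0.436 and 0.481 in replicate 3 and 1.07 to 1.54 elsewhere. Replicate 1 differed in another way: 21.7% and 23.7% of its reads fell outside annotated transcripts, against 45.1% to 48.6% in the other samples. In each pair fewer transcripts had a count in FT than in Sham. In replicates 1, 3, 4 and 5 there were 15853, 15002, 19278 and 18995 in FT against 16945, 15650, 21078 and 20539 in Sham.

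The HB label was first checked against habenula markers in the Sham samples of all 25 regions. Gene names were found for 5 of the 21 habenula markers listed, and Tac1, Tac2, Chat, Pou4f1, Gpr151, Chrna3 and Chrnb4 are among those not analysed here. Gng8, a G protein gamma subunit gene abundant in the medial habenula, had its highest mean in HB, at 219 CPM ± 174 (SD, n = 4). The next region was the paraventricular nucleus of the hypothalamus (PVN) at 166 CPM, with overlapping ranges, and the mediodorsal thalamus (MDT), which adjoins the habenula, stood at 15.3 CPM. Slc5a7, the choline transporter of cholinergic neurons, ranked 3 of 25 at 49.7 CPM, as did Kctd8, a GABA-B receptor auxiliary subunit, at 6.07 CPM. Both were highest in PVN, at 95.5 and 10.5 CPM. In the FT samples Gng8 also had a higher mean in PVN, at 252 CPM ± 247, than in HB, at 174 CPM ± 37.8. Gng8, Slc5a7 and Kctd8 therefore do not set HB apart from PVN. Slc17a6, the vesicular glutamate transporter of subcortical neurons, ranked 8 at 151 CPM. Tacr3, the neurokinin B receptor, went against the label: it ranked 19 at 3.06 CPM.

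**Figure D1:**
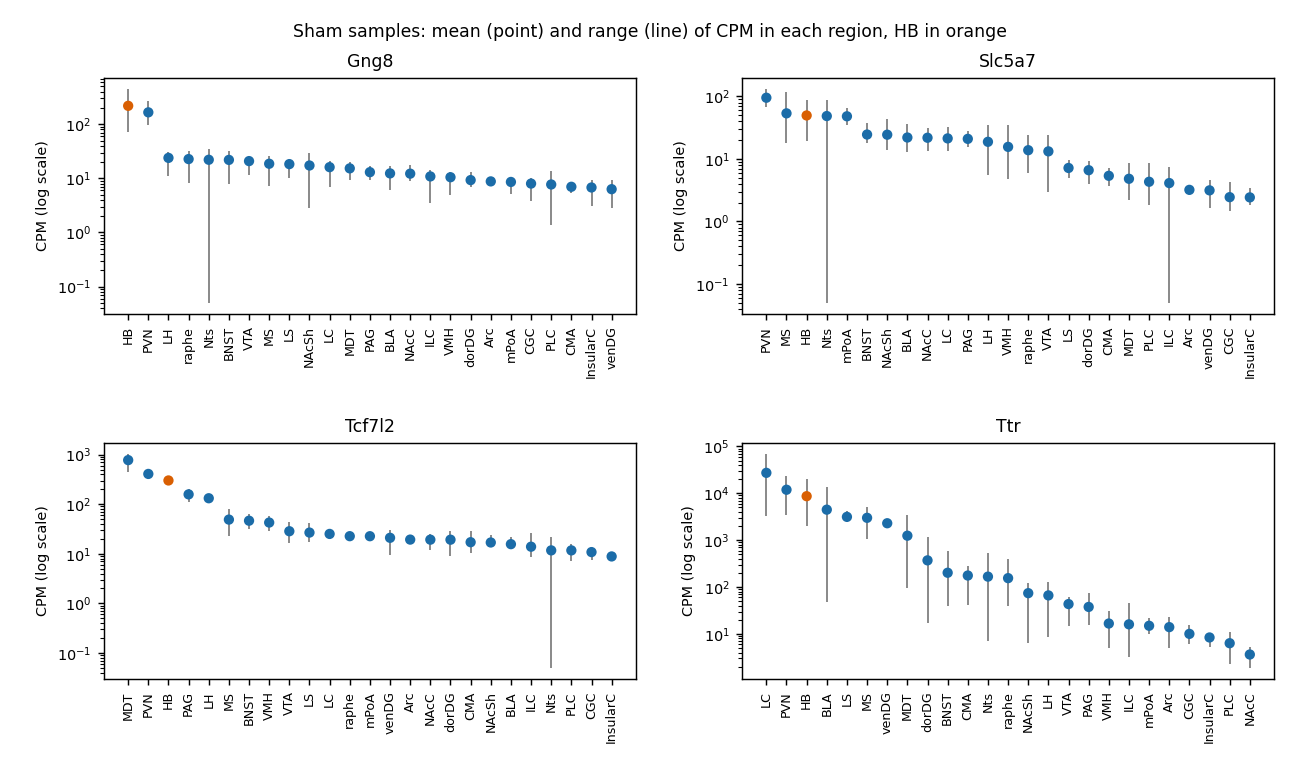
Mean CPM (points) and range over samples (lines) of 4 markers in the Sham samples of each of 25 regions, on log axes, with regions ordered by their mean and HB in orange; ranges that reach 0 are drawn down to 0.05 CPM. Gng8 was highest in HB at 219 CPM, Slc5a7, Tcf7l2 and Ttr ranked 3, and Ttr spanned the widest range among the HB samples.

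Markers of the tissues around the habenula were looked at as well. Tcf7l2, a transcription factor of thalamic and habenular neurons, stood at 301 CPM in HB, 408 CPM in PVN and 774 CPM in MDT. Because both tissues express it, its level does not show thalamic tissue in HB. Rora, the other thalamus marker measured, ranked 6 at 10.6 CPM, against 42.2 CPM in MDT. Transthyretin (Ttr), the major secreted protein of choroid plexus epithelium, ranked 3 at 8681 CPM ± 8275, and Igfbp2, also made there, ranked 1 at 231 CPM. Car12 ranked lowest of the choroid plexus markers, at 13. These levels over 25 regions were scaled across the whole series and are therefore close to, but not the same as, the HB levels that follow.

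Within HB, choroid plexus markers differed widely between paired samples and in opposite directions. The summed level of the 7 tested markers in replicates 1, 3, 4 and 5 was 1456, 2781, 7292 and 6010 CPM in FT against 8005, 25495, 5849 and 2453 CPM in Sham. Ttr made up most of this sum in each sample, at 24799 of 25495 CPM in Sham replicate 3. In the sum, FT lay below Sham in pairs 1 and 3 and above it in pairs 4 and 5. The 10 ependymal cilium markers had the same split, at 102, 63.8, 406 and 457 CPM in FT against 187, 152, 255 and 203 CPM in Sham. Habenula markers followed in part, at 298, 386, 390 and 427 CPM in FT against 477, 731, 309 and 428 CPM in Sham. Gng8, which had the same signs by pair, supplied 544 of the 731 CPM in Sham replicate 3. Slc5a7 and Kctd8 were lower in FT in pair 5 as well, Slc17a6 in all pairs, and Tacr3 in pairs 3 and 4. The summed level of telencephalic excitatory neuron markers separated the replicates rather than the treatments. It ran from 784 to 1140 CPM in replicates 1 and 3 and from 166 to 374 CPM in replicates 4 and 5. Abundant members weigh most in such a sum, and the members taken singly are described further below. In bulk tissue, a difference in the share of a cell type and a difference in RNA per cell cannot be told apart, and the part these markers play in the comparisons below was not tested.

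**Figure D2:**
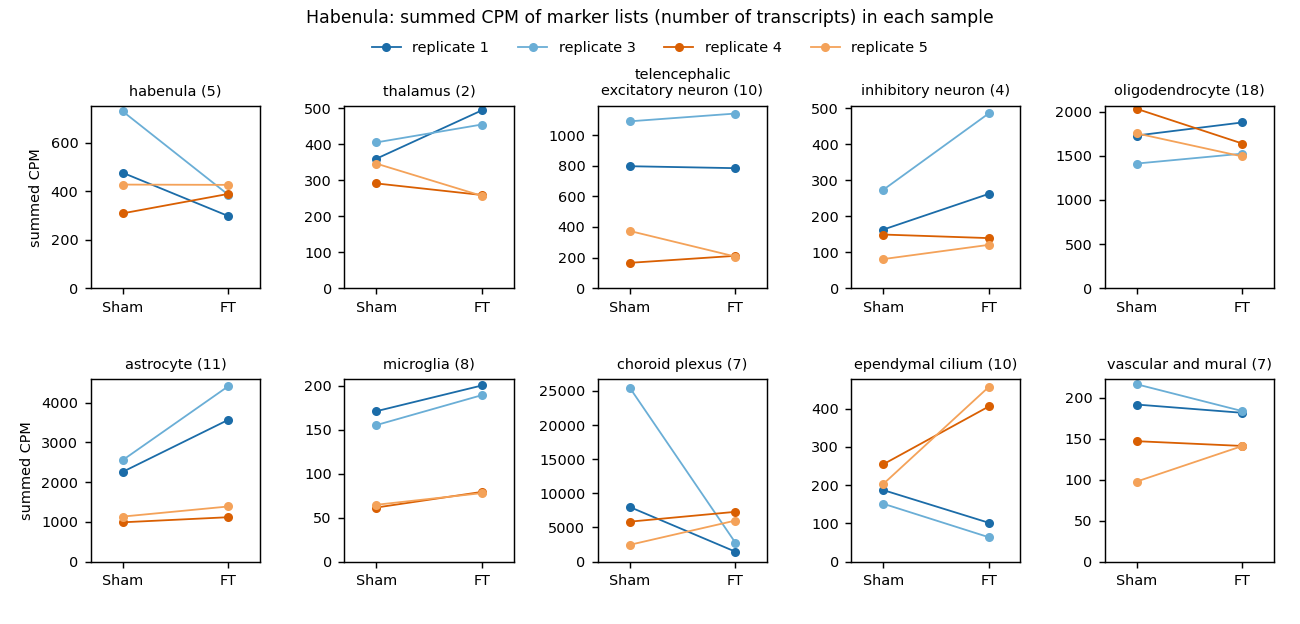
Summed CPM of 10 marker lists in each HB sample, Sham at left and FT at right of each panel, with lines joining the samples of a replicate and the number of transcripts in brackets. For choroid plexus and ependymal markers FT lay below Sham in replicates 1 and 3 and above it in replicates 4 and 5, and astrocyte sums were higher in FT in each pair.

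The comparison of FT with Sham was fitted in edgeR with the replicate number as a block. A call needed a log2 fold change (log2FC) of at least 0.32 in size and a p of at most 0.1 after Benjamini-Hochberg adjustment over the 14297 transcripts that passed the low-count filter. On these terms edgeR called 0 transcripts (0% of those tested), and its smallest adjusted p was 0.419. At an unadjusted p under 0.05 edgeR counted 1511 transcripts, 10.6% of those tested, 878 of them higher in FT (6.14%) and 633 lower (4.43%). limma-voom also called 0, with 1958 at an unadjusted p under 0.05. DESeq2 with the same block and limits called 233 of 11256 transcripts (2.07%), 174 higher (1.55%) and 59 lower (0.524%), and 231 of them were in the edgeR test, each with an unadjusted edgeR p under 0.05. Leaving out replicate 4 brought the DESeq2 count to 0 of 21667 transcripts with an adjusted p. Leaving out replicate 1, 3 or 5 gave 75 of 8089, 56 of 16540 or 185 of 2743. Of these, 46, 41 and 74 were among the 233. Since the number of transcripts with an adjusted p differed this much, the counts do not rank the replicates. Since edgeR called none, no transcript is described below as having risen or fallen, and a DESeq2 call is named as such.

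The 4 pairs fell into 2 sets in how their transcripts differed. Over the transcripts tested, the log2 ratio of FT to Sham in pair 4 correlated with that in pair 5 (r = 0.510), and that in pair 1 with that in pair 3 (r = 0.287). The 4 correlations across these sets lay between -0.127 and -0.00208. These are correlations across transcripts, which are not independent replicates. FT lay above Sham in all 4 pairs for 1623 transcripts (11.4%) and below in all 4 for 1474 (10.3%).

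Gene symbols were available for 1831 of the transcripts tested. They come from a table in which the study listed transcripts that it had called in more than 1 region. Only part of that table was used here, so a gene without a name may still be in it, and the named genes are not independent of these samples. Their median log2FC was 0.18, against -0.02 over all transcripts tested, of which 47.8% lay above 0. Among named transcripts, the 12 higher and 12 lower ones with the smallest edgeR p that went the same way in all 4 pairs are described first. All 24 had an edgeR adjusted p of 0.419. DESeq2, run on the same counts, called all 24, against 9.56% of named transcripts tested. That count follows from their choice by p and is no separate support for them. Their groups did not overlap for 7 of the 24, against 4.04% of named and 1.82% of all transcripts tested, and this count follows from how they were chosen.

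The promoters of 2 genes from each direction are shown because the sets differed in base composition, a feature that was not used to rank them. The 250 bases before the start of each gene were read from RefSeq (build GRCr8, not the rn5 build of the counts), with CG dinucleotides in capitals. Slc7a10 lies on the plus strand at chr1:96965872-96966121, Trim28 on the plus strand at chr1:82724645-82724894, Gpr22 on the minus strand at chr6:54044986-54045235 and Lrrtm4 on the plus strand at chr4:114104380-114104629.
Slc7a10: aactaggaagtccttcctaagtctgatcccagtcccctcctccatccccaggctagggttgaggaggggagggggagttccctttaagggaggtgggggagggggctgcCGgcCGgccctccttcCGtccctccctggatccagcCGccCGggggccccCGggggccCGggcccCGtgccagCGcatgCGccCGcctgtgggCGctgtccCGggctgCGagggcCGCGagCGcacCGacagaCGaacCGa
Trim28: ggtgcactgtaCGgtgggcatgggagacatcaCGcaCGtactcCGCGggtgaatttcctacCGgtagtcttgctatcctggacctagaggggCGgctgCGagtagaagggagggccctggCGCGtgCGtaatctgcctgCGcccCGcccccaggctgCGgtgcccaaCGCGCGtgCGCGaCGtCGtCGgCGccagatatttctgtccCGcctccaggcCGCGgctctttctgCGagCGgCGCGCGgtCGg
Gpr22: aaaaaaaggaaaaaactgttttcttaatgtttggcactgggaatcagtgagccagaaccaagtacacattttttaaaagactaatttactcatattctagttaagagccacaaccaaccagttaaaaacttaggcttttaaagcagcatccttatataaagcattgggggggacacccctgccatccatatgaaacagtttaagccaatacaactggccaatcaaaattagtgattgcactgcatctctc
Lrrtm4: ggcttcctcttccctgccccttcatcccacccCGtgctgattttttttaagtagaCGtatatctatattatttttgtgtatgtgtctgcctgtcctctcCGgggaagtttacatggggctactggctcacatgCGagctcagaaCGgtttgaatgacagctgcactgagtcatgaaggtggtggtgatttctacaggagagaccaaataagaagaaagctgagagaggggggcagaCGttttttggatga
The Slc7a10 and Trim28 promoters, of genes higher in FT, held 20 and 32 CG dinucleotides at 72.4% and 68.0% G and C. Those of the lower genes Gpr22 and Lrrtm4 held 0 and 6, at 37.2% and 47.6%.

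Promoters were found for 9 of the 12 higher and 10 of the 12 lower genes. Their median G and C content was 68.0% (58.8% to 80.4%) for the higher and 50.2% (36.8% to 68.8%) for the lower genes. It was 60.4% over the 1466 named transcripts tested that had a promoter and 51.2% over all RefSeq promoters. The lower genes Mat2a, Ccnt2 and Bzw1 had 67.6%, 67.6% and 68.8%, so the 2 lower genes shown do not stand for all of their set. The letters GGGCGG, the GC box bound by Sp1, were present on either strand in 8 of the 9 and in 4 of the 10, against 62.1% of named transcripts tested and 30.5% of all 33469 RefSeq promoters. The palindromic E-box CACGTG was found in 2 of the 9 and 1 of the 10 (5.59% of all promoters), and the cAMP response element TGACGTCA in none of either (1.59%). The gene span in RefSeq differed as well. Its median was 7.25 kb for the 12 higher and 40.8 kb for the 12 lower genes. Over all named transcripts at an unadjusted edgeR p under 0.05 it was 10.7 kb for the 414 higher and 41.4 kb for the 175 lower ones with a span, and 17.6 kb for the 1786 named transcripts tested with one. The quartiles of these sets overlapped, at 5.20 to 23.1 kb for the higher and 17.1 to 88.9 kb for the lower ones, and the difference was not tested. The FT samples also had counts for fewer transcripts than their Sham partners. The part of this library difference in the contrasts of span and base composition was not tested.

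Among the higher genes, the smallest p belonged to Slc7a10 (ENSRNOT00000015205), which encodes the alanine-serine-cysteine transporter of astrocytes that carries D-serine and glycine. It was measured at 46.4, 31.2, 58.9 and 102 CPM in FT replicates 1, 3, 4 and 5 and at 22.4, 14.6, 21.9 and 39.3 CPM in Sham. Every FT sample was above its own Sham partner by a like factor, although the highest Sham sample exceeded the lowest FT sample. The log2FC was 1.247 ± 0.171 (SE), and the DESeq2 adjusted p was 2.85e-05.

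Trim28 (ENSRNOT00000029996), the KAP1 corepressor that recruits the histone methyltransferase SETDB1 to zinc finger protein targets, read 219, 156, 183 and 318 CPM in FT against 105, 92.5, 82.4 and 99.9 CPM in Sham. The groups did not overlap, and Sham samples lay within a narrow band while FT samples spread more widely. Its log2FC was 1.16 ± 0.19, with a DESeq2 adjusted p of 0.000492. The study also measured Trim28 in tissue sections, together with Otub1 and Sirt2. Otub1, a deubiquitinating enzyme, stood at 1098, 512, 384 and 806 CPM in FT and 915, 343, 199.7 and 329 CPM in Sham. FT exceeded Sham in each pair, but the groups overlapped widely because the replicate 1 samples were high in both. Its log2FC was 0.77 ± 0.21, with an edgeR adjusted p of 0.419 and a DESeq2 adjusted p of 0.0673. Sirt2, an NAD-dependent deacetylase of oligodendrocytes, had 186, 273, 29.6 and 30.7 CPM in FT and 132, 192, 15.2 and 89.7 CPM in Sham. Pair 5 went against the other pairs, and the log2FC was 0.13 ± 0.38 with an edgeR adjusted p of 0.926.

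**Figure D3:**
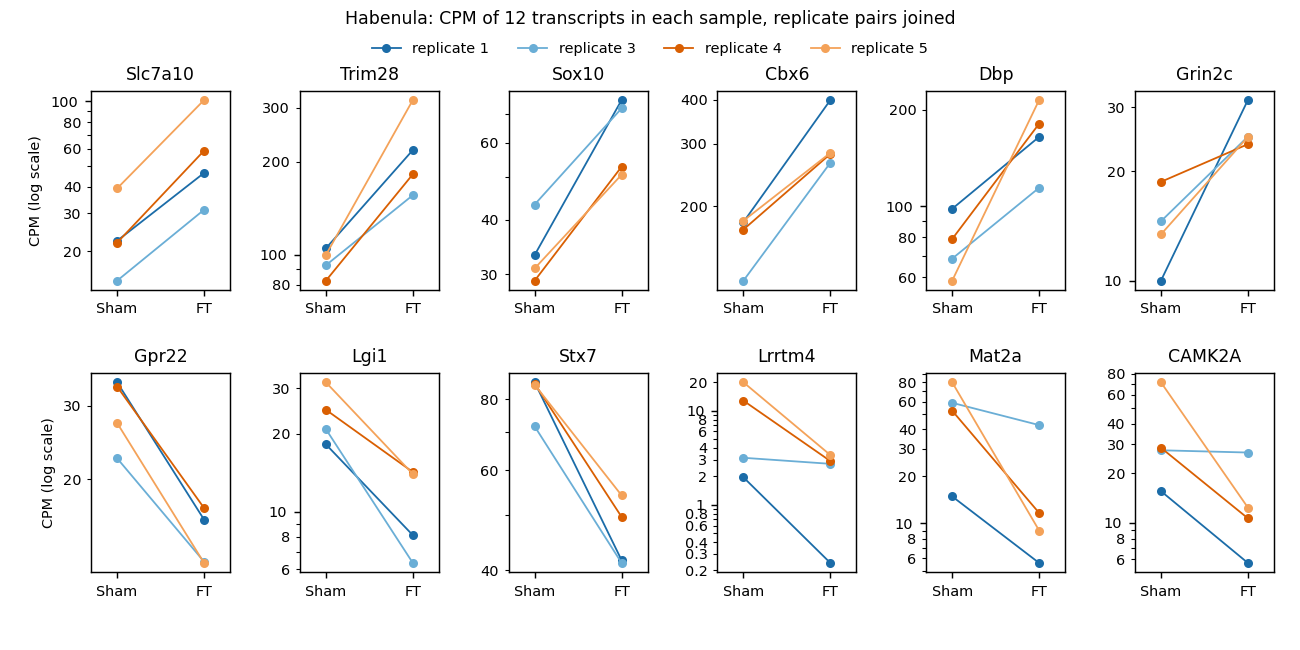
CPM of 12 transcripts in each HB sample on log axes, Sham at left and FT at right, with a line for each replicate pair. The upper 6 were higher and the lower 6 lower in FT in each pair, and Lrrtm4, Mat2a and CAMK2A differed least in replicate 3.

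Cbx6 and Sox10 were the other higher genes whose groups did not overlap. Cbx6, a Polycomb chromodomain protein, had 399, 266, 281 and 283 CPM in FT against 181, 124, 172 and 182 CPM in Sham (log2FC 0.90 ± 0.17). Sox10, the transcription factor that defines oligodendrocyte-lineage cells, measured 75.2, 72.0, 52.9 and 50.7 CPM in FT and 33.2, 43.3, 29.0 and 30.9 CPM in Sham (log2FC 0.88 ± 0.17). Egln2, an oxygen-dependent prolyl hydroxylase that acts on hypoxia-inducible factor, was steadier across pairs than any other gene of the 12, with log2 ratios of 0.89, 0.91, 1.00 and 1.01 in pairs 1, 3, 4 and 5.

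The remaining higher genes included Arhgdia and Arhgdig, whose products keep small GTPases inactive in the cytosol. Arhgdia read 323, 456, 252 and 279 CPM in FT and 188, 260.2, 97.5 and 109 CPM in Sham (log2FC 1.08 ± 0.19), and Arhgdig gave a log2FC of 0.87 ± 0.17. Pfkl, the liver-type phosphofructokinase of glycolysis, had 224, 169.7, 79.2 and 98.3 CPM in FT and 107, 106, 36.4 and 60.8 CPM in Sham (log2FC 0.89 ± 0.17). Their levels overlapped between groups because replicates 1 and 3 lay above replicates 4 and 5 in both treatments. Ttc9b (0.99 ± 0.17), Rbm42, an RNA-binding protein (0.85 ± 0.16), Gpr162, an orphan receptor (0.83 ± 0.16), and Ly6h, a GPI-anchored protein that binds nicotinic receptors (1.01 ± 0.19), completed the 12. Ly6h was present at 347 and 215 CPM in the replicate 3 samples and between 2.19 and 16.8 CPM in all others, so replicate 3 set its group means.

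Among the lower genes, the smallest p belonged to Gpr22 (ENSRNOT00000011659), an orphan G protein-coupled receptor of brain and heart, which was at 16.0, 12.7, 17.0 and 12.6 CPM in FT and at 34.1, 22.4, 33.3 and 27.3 CPM in Sham. All FT samples lay below all Sham samples, with pair ratios between -0.82 and -1.11 on the log2 scale. The log2FC was -1.01 ± 0.18, with a DESeq2 adjusted p of 0.00728. Lgi1, a secreted synaptic protein that bridges ADAM receptors across the synapse and whose loss causes epilepsy, read 8.11, 6.34, 14.2 and 14.0 CPM in FT against 18.2, 20.9, 24.8 and 31.7 CPM in Sham. It too was without overlap, at a log2FC of -1.17 ± 0.22. Stx7, a syntaxin of late endosomes, had 41.6, 41.2, 49.6 and 54.2 CPM in FT and 85.6, 71.6, 85.2 and 84.8 CPM in Sham, and had the smallest SE of the lower genes (log2FC -0.82 ± 0.16). Pkia, an inhibitor of protein kinase A, was the other lower gene whose groups did not overlap, at 7.49 CPM ± 1.91 in FT and 16.3 CPM ± 3.88 in Sham.

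Lrrtm4 (ENSRNOT00000030588), a postsynaptic adhesion protein of excitatory synapses, had the most negative log2FC of the 12, -2.13 ± 0.44. It was measured at 0.24, 2.72, 2.90 and 3.37 CPM in FT and 1.95, 3.15, 12.7 and 20.0 CPM in Sham. The difference was carried by pairs 1, 4 and 5, since pair 3 had a log2 ratio of only -0.20. Mat2a, which makes S-adenosylmethionine, the methyl donor of DNA and histone methylation, read 5.59, 42.5, 11.7 and 9.01 CPM in FT and 14.9, 59.0, 52.6 and 79.9 CPM in Sham (log2FC -1.83 ± 0.40). Replicate 3 again showed the smallest difference. Ccnt2, a cyclin of the transcription elongation factor P-TEFb, Kctd4, Sh3bgrl, rnf141, Bzw1 and Plxna4a had log2FC between -0.88 and -1.33.

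**Figure D4:**
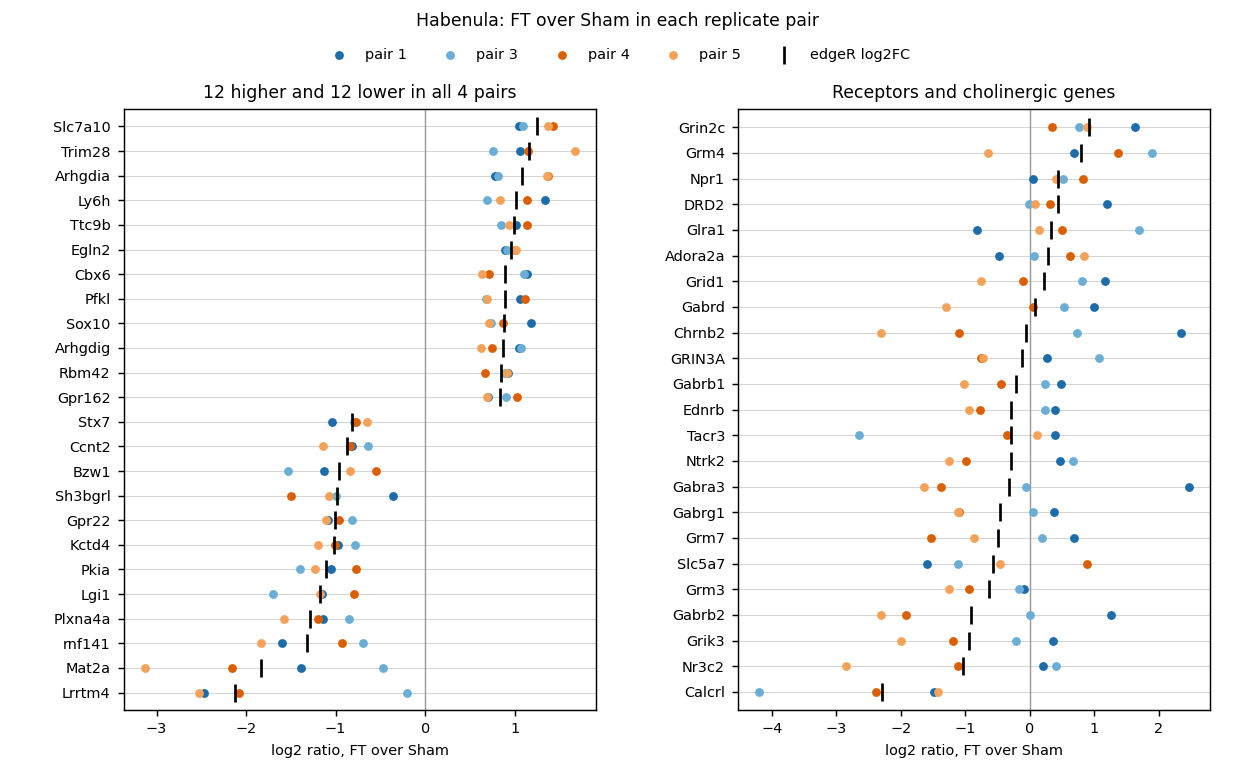
log2 ratio of FT to Sham CPM in each replicate pair (coloured points) and the edgeR log2FC (black bars) for the 24 genes ranked by p at left and for 23 receptor and cholinergic genes at right. At left the sign is shared by all pairs because it was required, and at right 10 of the 23 genes lay above 0 in pairs 1 and 3 and below 0 in pairs 4 and 5.

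Transmitter receptors and cholinergic genes, through which habenular neurons receive and send their signals, were mostly not separable by treatment. Of 23 such genes tested, 4 had an unadjusted edgeR p under 0.05, against 32.9% of named and 10.6% of all transcripts tested, and 1 was called by DESeq2, against 9.56% of named transcripts. That gene was Grin2c, an NMDA receptor subunit expressed by astrocytes and some neurons, at 31.4, 24.9, 23.7 and 24.9 CPM in FT and 10.0, 14.6, 18.7 and 13.4 CPM in Sham. The groups did not overlap, with a log2FC of 0.92 ± 0.25, an edgeR adjusted p of 0.419 and a DESeq2 adjusted p of 0.0760. Grm3, a glial and neuronal group II metabotropic glutamate receptor, had a log2FC of -0.63 ± 0.24, with pairs 1 and 3 close to 0. Calcrl, the receptor for calcitonin gene-related peptide and adrenomedullin, was rare, at 0 to 0.88 CPM in FT and 0.747 to 2.60 CPM in Sham (log2FC -2.29 ± 0.61, edgeR adjusted p 0.419). Npr1, a natriuretic peptide receptor, had a log2FC of 0.45 ± 0.19.

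For 10 of the 23 genes FT was above Sham in pairs 1 and 3 and below it in pairs 4 and 5, a pattern sought after the values were seen. It was present in 11.9% of all and 14.8% of named transcripts tested, and the opposite pattern, present in 12.5% and 16.4%, was shown by 0 of the 23. Chrnb2, the beta subunit of the main neuronal nicotinic receptor, illustrates it. It had 4.93, 69.7, 0.726 and 0.932 CPM in FT and 0.862, 41.7, 1.71 and 5.14 CPM in Sham, so that the log2FC of -0.05 ± 0.71 averages ratios from 2.34 to -2.30. Gabrb2 and Gabrg1, GABA-A receptor subunits, Ntrk2, the receptor for brain-derived neurotrophic factor, and Ednrb, the endothelin receptor of astrocytes, shared the signs. The opposite pattern was held by 6 of 7 choroid plexus and 5 of 10 ependymal markers, and also by 15 of 32 nuclear-encoded subunits of oxidative phosphorylation and 9 of 25 mitochondrial ribosomal proteins. The part of tissue makeup in these splits was not tested.

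Of the serotonin system, on which fluoxetine acts directly, Htr1a alone of 21 genes had a name, and it did not pass the low-count filter in HB. The serotonin transporter, receptors and synthetic enzymes were therefore not analysed here. Among the habenula markers no member had an unadjusted p under 0.05. Gng8 read 143, 265, 180.4 and 203 CPM in FT and 259.6, 544, 78.4 and 121 CPM in Sham, with FT below Sham in pairs 1 and 3 and above in pairs 4 and 5 (log2FC 0.01 ± 0.39). Slc17a6 was at or below its Sham partner in all pairs, at a log2FC of -0.32 ± 0.17 (edgeR adjusted p 0.534).

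The 10 neuropeptide genes tested had a median log2FC of -0.05, with 5 of them below 0. Higher in FT in all pairs were 3, as were 442 of the 1831 named transcripts tested. The same 3 were called higher by DESeq2 (7.76% of named transcripts were). They were Sst and Cck, which encode somatostatin and cholecystokinin, and Vgf, a neurosecretory protein precursor that is named here after its values were seen. Sst had 67.6, 229, 16.9 and 16.6 CPM in FT and 42.9, 102, 8.70 and 10.3 CPM in Sham (log2FC 0.86 ± 0.17, edgeR adjusted p 0.419, DESeq2 adjusted p 0.0102). Cck had 44.5, 385, 42.2 and 32.9 CPM against 35.9, 177, 20.0 and 21.4 CPM (log2FC 0.78 ± 0.19, DESeq2 adjusted p 0.0485). Both had their highest level in replicate 3 in either treatment. Vgf stood at 41.1 CPM ± 5.53 in FT and 23.1 CPM ± 8.83 in Sham (log2FC 0.93 ± 0.24, edgeR adjusted p 0.419). Pvalb, a calcium buffer of fast-spiking interneurons and some thalamic input, gave 0.64 ± 0.19.

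Glial lists differed among their members. Of 11 astrocyte markers, 5 had an unadjusted p under 0.05 with FT higher and 0 with FT lower, against 23% and 9.89% of named transcripts (6.14% and 4.43% of all). DESeq2 called 4 of the 11 higher, against 7.76% of named transcripts. Of the 11, 6 lay above 0 and 5 below, down to a log2FC of -1.53. Their summed level was 3566, 4411, 1116 and 1386 CPM in FT and 2257, 2552, 988 and 1132 CPM in Sham, so FT was above Sham in each pair, and replicates 1 and 3 stood above replicates 4 and 5 in both treatments. Agt weighs heavily in this sum. On the scaling over the whole series it averaged 830 CPM in the Sham HB samples, and Gja1, the next member, 223 CPM. The part of astrocyte content in the values of single astrocyte genes was not tested. Slc25a18, a mitochondrial glutamate carrier, had a log2FC of 0.66 ± 0.18. Of 18 oligodendrocyte markers, 4 were called higher by DESeq2, among them Sox10 (7.76% of named transcripts were), yet the median of the list was -0.14 and 10 members lay below 0. C1qa, a complement component of microglia, had a log2FC of 0.46 ± 0.16, while the 8 microglia markers split into 4 above and 4 below 0. Myh11, the myosin of vascular smooth muscle, read 23.1, 37.1, 37.4 and 48.7 CPM in FT and 16.8, 21.6, 19.4 and 19.2 CPM in Sham, without overlap (log2FC 0.89 ± 0.20, edgeR adjusted p 0.419). Of the 7 vascular and mural markers, 4 lay above 0 and 3 below. Cav1 was lower in FT in each pair (log2FC -0.57 ± 0.22, edgeR adjusted p 0.454).

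Chromatin regulators had a median log2FC of 0.35 over 29 members, against 0.18 over all named transcripts tested. Of these, 10 had an unadjusted p under 0.05 with FT higher and 1 with FT lower, against 23% and 9.89% of named transcripts. DESeq2 called 4 higher, among them Trim28 and Cbx6, against 7.76% of named transcripts. The median was between 0.38 and 0.61 in each of the 4 pairs. The list was written with earlier results of these data known, and its genes were named only if the study had called them.

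Of 3 lists of mitochondrial genes, the 2 of nuclear-encoded genes differed between pairs 1 and 3 and pairs 4 and 5, and the list encoded by the mitochondrial genome did not. Nuclear-encoded oxidative phosphorylation subunits had a median log2FC of 0.29, with 26 of 32 above 0 (59.6% of named transcripts were). An unadjusted p under 0.05 with FT higher was found for 6 of the 32, against 23% of named transcripts, and 1 was called by DESeq2. That subunit was Ndufv1 of complex I, at a log2FC of 0.61 ± 0.17, whereas Uqcrc2 of complex III was at -0.63 ± 0.17. By pair, the median log2 ratio was -0.04 and -0.09 in pairs 1 and 3 and 0.61 and 0.67 in pairs 4 and 5. Mitochondrial ribosomal proteins, which translate the mitochondrial genome, had a median of 0.29 with 24 of 25 above 0, and pair medians of 0.03, -0.04, 0.67 and 0.52. Subunits encoded by the mitochondrial genome itself had a median of -0.35 and pair medians of -0.40, -0.38, -0.64 and -0.05, with 7 of 8 below 0, MT-ND5 at -0.55 ± 0.21 and MT-ND4L at -0.45 ± 0.17. Cytosolic ribosomal proteins were centred near 0, at -0.11, with Rps2 and Rpsa at 0.68 ± 0.21 and 0.54 ± 0.18.

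**Figure D5:**
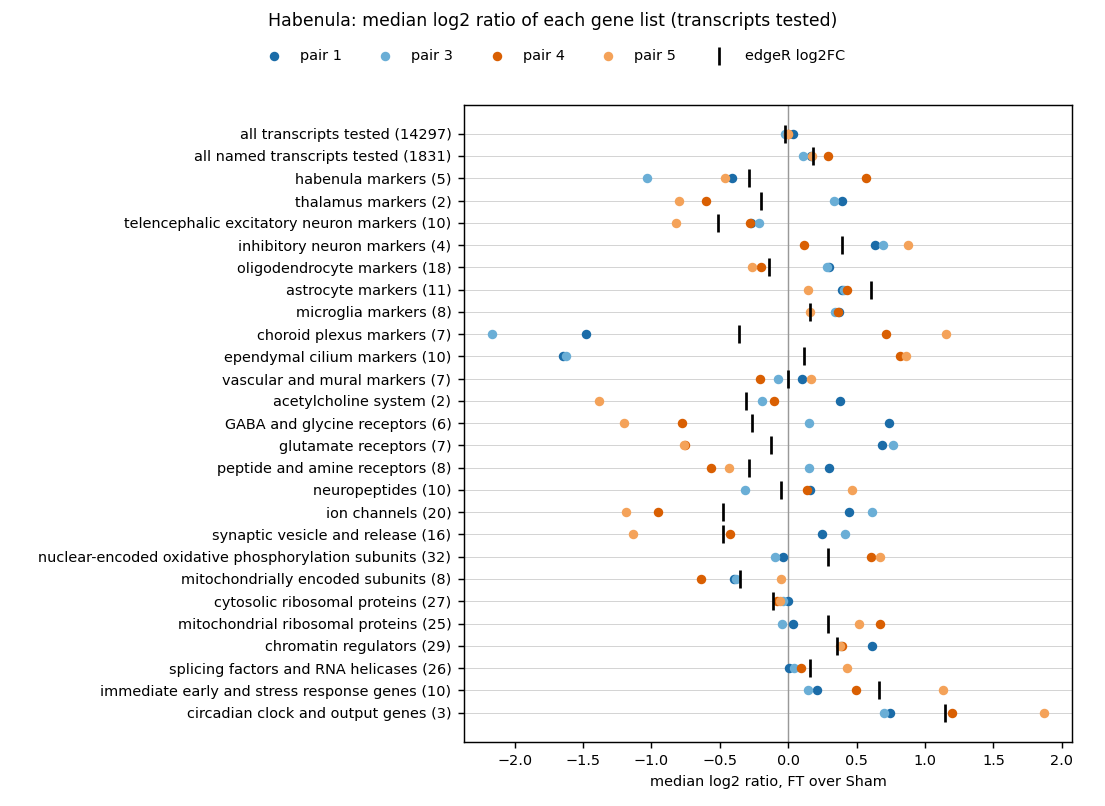
Median log2 ratio of FT to Sham in each replicate pair (coloured points) and median edgeR log2FC (black bars) of 25 gene lists, with the transcripts tested in brackets and all tested and all named transcripts in the top lines. Medians lay above 0 in all pairs for all named transcripts and for 7 lists (chromatin, circadian, astrocyte, microglia, inhibitory neuron, splicing, and immediate early and stress genes). They lay below 0 in all pairs for the telencephalic excitatory neuron and mitochondrially encoded lists. Choroid plexus, ependymal, thalamus, oligodendrocyte, receptor, ion channel, vesicle and nuclear-encoded oxidative phosphorylation lists had opposite signs in pairs 1 and 3 and in pairs 4 and 5.

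Dbp, a clock-controlled transcription factor of the PAR bZip family, and Cirbp, a cold-inducible RNA-binding protein with a daily rhythm, were the circadian genes with the smallest p. Dbp had 164, 114, 181 and 214 CPM in FT and 98.0, 68.5, 78.9 and 58.5 CPM in Sham, with no overlap (log2FC 1.14 ± 0.23, edgeR adjusted p 0.419, DESeq2 adjusted p 0.00610). Cirbp had 203, 122, 358 and 1167 CPM in FT and 163, 112, 93.7 and 115 CPM in Sham. Its log2FC of 1.41 ± 0.52 rested on replicates 4 and 5, since the ratios of pairs 1 and 3 were 0.31 and 0.12.

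Excitability and release genes gave further named members. Kcnab3, a potassium channel beta subunit, was at 23.3 CPM ± 5.76 in FT and 12.6 CPM ± 4.30 in Sham without overlap (log2FC 0.89 ± 0.22), and Kcnk15, a potassium leak channel, at 0.81 ± 0.22, while the median of 20 ion channels was -0.48. CAMK2A, the calcium and calmodulin-dependent kinase of excitatory synapses, read 5.71, 26.7, 10.7 and 12.4 CPM in FT and 15.6, 27.6, 28.6 and 71.2 CPM in Sham (log2FC -1.41 ± 0.36, DESeq2 adjusted p 0.0379). It belongs to the 10 telencephalic excitatory neuron markers tested, whose median was -0.51, with 8 below 0. Lower in FT in all 4 pairs were 5 of them and higher 1, as were 209 and 442 of the 1831 named transcripts tested. At an unadjusted edgeR p under 0.05, 4 were lower and 1 higher, against 9.89% and 23% of named transcripts. Sncb, beta-synuclein, had a log2FC of 0.69 ± 0.19, and Picalm, a clathrin adaptor, -0.96 ± 0.24, in a release list with a median of -0.47 over 16 members. Ddx25, an RNA helicase, was at 112 CPM ± 14.2 in FT and 66.5 CPM ± 16.3 in Sham without overlap. Among stress response genes, Hspb1 had a log2FC of 0.88 ± 0.25 and Txnip, an inhibitor of thioredoxin, -0.52 ± 0.16.

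Whether the response of HB differed from that of related regions was tested as an interaction in edgeR. The regions were MDT beside it, the raphe and the ventral tegmental area (VTA). The test called 0 transcripts against each region (0% of 14905, 14566 and 14788 tested), with 431, 1012 and 133 at an unadjusted p under 0.05 (2.89%, 6.95% and 0.899%). DESeq2 called 2, 0 and 1. The regions were punched from the brains of the same animals, which this fit does not take into account, and the differences below come from the joint fit. Against MDT the smallest p of a named gene was that of Sst, whose log2FC was 0.86 in HB and -0.75 in MDT, a difference of 1.61 ± 0.25 (edgeR adjusted p 0.330). It was 1 of the 2 DESeq2 calls. Against the raphe it was that of Gpr22, at -1.01 in HB and 0.08 in the raphe, a difference of -1.12 ± 0.30 (adjusted p 0.707), and against VTA Gpr22 again, at -0.46 in VTA (difference -0.59 ± 0.24, adjusted p 1). No response is therefore described as particular to HB.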

How the data were processed

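RNA from pooled punches of rat HB was sequenced (TruSeq Stranded Total RNA, paired ends; the molecule field of the labels reads polyA RNA). The authors aligned reads with STAR to rn5 and deposited HTSeq counts per Ensembl transcript; versions, and the strand setting of the counting, are not given in the sources used here. If strand was not used, reads of antisense partners cannot be told apart, and reads shared by overlapping transcripts are counted as ambiguous (2.59% to 7.95% here). The 5 summary lines of each file were left out of totals and tests, and reads outside annotated transcripts made up 21.7% to 48.6%.

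Counts were tested in edgeR 4.0.16 (R 4.3.3) by the quasi-likelihood test on the deposited counts, with TMM scaling, filterByExpr at its defaults (minimum count 10) and the replicate number as a block. Adjusted p-values are Benjamini-Hochberg values over all transcripts tested. The SE of a log2FC is its size divided by the square root of F. Log2 ratios by pair use a prior count of 2. Numbers pair the samples: FT and Sham samples of a number were processed together, and their deviations from the group means correlated at 0.590, 0.732, 0.711 and 0.539. Each sample is a pool of animals. With the block, p-values measure how the FT to Sham difference varies between the 4 pairs of pools. Total counts of 5078848 to 15618793 set the precision.

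Alternatives were DESeq2 1.42.0, limma-voom (limma 3.58.1), other size factors, other filters, no block and each replicate or sample left out; the newer edgeR method and DESeq2 with a replicate left out were added after seeing the data. The tests were tried on simulated counts first. Symbols came from the part used here of a table of transcripts that the study called on these samples, matched by transcript ID (1844 of 29188), and promoters and gene spans from RefSeq by symbol or synonym. The members and gene lists were chosen with earlier results of these data known. Named genes are the 12 higher and 12 lower with the smallest p and the same sign in 4 pairs, all measured members of the habenula, serotonin, acetylcholine and receptor lists, Otub1, Trim28 and Sirt2, and the 2 members of every other list with the smallest p.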

Additional observations from a re-analysis of the deposited data

Results flagged for a closer look

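Each group of 4 HB samples was examined for 1 sample far from the other 3, over 194 groups (2 treatments of 87 named genes and 10 marker sums), and 15 were found. Chance gives about 1 in 20 groups if values are independent and normally distributed. Here CPM values were used without a log, many genes were chosen by p, and paired FT and Sham samples vary together. That rate therefore need not hold for these groups.

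Replicate 3, the shallowest pair, supplied 10 of the 15. Ly6h was at 347 CPM in FT and 215 CPM in Sham replicate 3, against at most 16.8 and 6.55 CPM in the others. Chrnb2 was at 69.7 and 41.7 CPM there, against at most 4.93 and 5.14 CPM, and Cck at 385 and 177 CPM, against at most 44.5 and 35.9 CPM. These 3 genes stood apart in both treatments. In FT replicate 3 alone, Mat2a stood at 42.5 CPM (others at most 11.7), Rora, a nuclear receptor of thalamic neurons, at 15.8 CPM (others at most 7.14) and Grik3, a kainate receptor subunit, at 2.72 CPM (others at most 0.823). Stx7 was low in Sham replicate 3, at 71.6 CPM against 84.8 to 85.6 CPM.

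Replicate 1 supplied the rest. FT replicate 1 was highest for Cbx6 at 399 CPM, Grin2c at 31.4 CPM and Grid1, a delta glutamate receptor, at 19.8 CPM. Sham replicate 1 was lowest for Calcrl at 0.747 CPM and highest for Kcnk15 at 25.1 CPM.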

How the results depend on the processing

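The number of transcripts called in HB was 0 in edgeR, and it was also 0 with limma-voom, with other size factors, with a filter of 1 CPM in 4 samples, with the newer quasi-likelihood method of edgeR (added after seeing the data), at an adjusted p of 0.05 and with each replicate or sample left out (0 to 0). Without the replicate block it was 0 as well, with 170 transcripts at an unadjusted p under 0.05 instead of 1511. DESeq2 called 233, with 174 higher and 59 lower, and edgeR without a low-count filter 6, with 4 higher and 2 lower, among them Slc7a10, Trim28, Arhgdia and Mat2a. With 1 replicate left out, a setting added after seeing the data, the DESeq2 calls ranged from 0 to 185. These were 0 of 21667 transcripts without replicate 4 and 185 of 2743 without replicate 5. Calls of a difference in response were 2 with DESeq2 against MDT and 1 against VTA, and 0 to 2 against the raphe with 1 replicate left out, where the 2 came without replicate 5. Over the 87 named genes the sign of the log2FC turned for Gng8 (-0.34) and Chrnb2 (0.63) without the block and for Chrnb2 (0.083) with limma-voom. With a replicate or sample left out it turned in 65 refits and kept its sign in 979. The 13 genes concerned ranged from -0.475 to 0.051 (Tacr3), -0.393 to 0.382 (Gng8), -0.354 to 0.026 (Kctd8), -0.843 to 0.757 (Chrnb2), -1.174 to 0.275 (Gabra3), -0.480 to 0.077 (Gabrb1), -0.262 to 0.537 (Gabrd), -0.017 to 0.623 (Glra1), -0.417 to 0.145 (GRIN3A), -0.153 to 0.613 (Grid1), -0.597 to 0.045 (Ntrk2), -0.155 to 0.653 (Sirt2) and -0.128 to 0.162 (Tcf7l2). The cause of these changes was not tested. Replicate 3 had the fewest reads, and its low transcripts rest on few counts.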
